A study of Mus musculus with 9 samples.

Results

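Smooth muscle and pericyte genes were followed in RNA from mice that carry activated NRAS in their melanocytes. The set held 10 genes, Myh11, Acta2, Des, Cnn1, Tagln, Myl9, Actg2, Mylk, Pdgfrb and Rgs5, of 37801 gene entries used, and each symbol occurred in 1 row. They were chosen by name, after Myh11 had been noted to be lower than wild type in both NrasQ61K groups of these same libraries. For that reason their differences from wild type are given as a description, and nothing is read from a test of them.

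RNA sequencing was carried out on 9 libraries in 3 groups of 3. Tyr-NrasQ61K MHCII-KO mice (MHCII-KO below) and Tyr-NrasQ61K mice both carry NrasQ61K, an activated form of the RAS protein NRAS, under the tyrosinase promoter, which is active in melanocytes, on a crossed FVB/NJ background. By their labels, libraries of MHCII-KO mice are Cre-positive and MHC-negative and those of Tyr-NrasQ61K mice Cre-negative and MHC-positive. The labels do not name the MHC class II gene deleted or the cells in which Cre acts. Wild-type (WT) mice were FVB/NJ with unaltered NRAS and MHC class II, described as albino littermates without the transgene. The labels do not give ages and do not say that each library is a separate animal, so the spread between libraries may be partly technical.

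The values are FPKM, numbers of sequenced fragments normalised to the length of the transcript and to the total of the library, and they do not keep the depth of a library. The labels name nevus melanocytes as the source, whereas the paper describes whole lymph nodes. The 8 lymphocyte markers, of which Ighm, the IgM heavy chain, was by far the highest, summed to 1012 to 2592 FPKM in MHCII-KO, 637 to 2069 in Tyr-NrasQ61K and 1230 to 2575 in WT libraries, and 8 melanocyte markers to 6.90 to 12.4 FPKM in MHCII-KO, 12.9 to 17.8 in Tyr-NrasQ61K and 3.64 to 5.63 FPKM in WT libraries. Ptprc, the pan-leukocyte gene CD45, was at 55.2 to 114 FPKM in MHCII-KO, 49.5 to 126 in Tyr-NrasQ61K and 137 to 191 FPKM in WT libraries. The MHC class II chain H2-Ab1 was at 108 to 271 FPKM in MHCII-KO, 149 to 276 in Tyr-NrasQ61K and 101 to 183 in WT libraries, so the groups overlapped and the MHCII-KO label does not show in the level of this gene. The libraries also differed in overall scale: the median-ratio factor, the median over genes of a library's level relative to the geometric mean of the libraries, was 0.804 to 0.983 in MHCII-KO, 0.799 to 1.22 in Tyr-NrasQ61K and 0.944 to 1.23 in WT libraries.

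Smooth muscle cells shorten when calcium, through calmodulin, switches on myosin light chain kinase, which phosphorylates the regulatory light chain of myosin and lets the smooth muscle myosin heavy chain pull on actin filaments. Pericytes are the related cells that wrap capillaries and venules and depend on signalling through the PDGF receptor beta. In a lymph node such cells surround blood vessels, and smooth muscle is also found in the capsule and in the walls of the lymphatic vessels that enter and leave it. In bulk RNA, fewer cells of a type and less RNA per cell cannot be told apart.

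Mean levels of the contractile genes and of Rgs5, a gene of pericytes and smooth muscle, were lower in both NrasQ61K groups than in WT. That of the pericyte receptor Pdgfrb differed less from WT. Group means of Myh11, Acta2 and Tagln in MHCII-KO libraries were 0.386, 0.354 and 0.401 times those in WT libraries. In Tyr-NrasQ61K libraries the same 3 ratios to WT were 0.405, 0.404 and 0.409. For Des, Mylk and Rgs5 the ratios to WT were 0.659, 0.514 and 0.508 in MHCII-KO and 0.704, 0.557 and 0.599 in Tyr-NrasQ61K libraries. The ratio for Pdgfrb was 1.08 in MHCII-KO and 0.963 in Tyr-NrasQ61K libraries. After levels were divided by the median-ratio factor, the ratios for Myh11 were 0.478 in MHCII-KO and 0.462 in Tyr-NrasQ61K. Those for Pdgfrb were then 1.36 and 1.14. The ratio of MHCII-KO to Tyr-NrasQ61K means lay between 0.704 (Myl9) and 1.13 (Pdgfrb) for the 8 genes that were expressed well enough to test.

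Myh11 (ENSMUSG00000018830, chr16:14194535-14291372 on the minus strand of mm10) encodes the smooth muscle myosin heavy chain, the motor of the contractile filament and the most restricted marker of mature smooth muscle in the set. It had 2.64, 1.96 and 2.06 FPKM in MHCII-KO libraries, 2.35, 1.79 and 2.85 FPKM in Tyr-NrasQ61K libraries and 6.61, 4.41 and 6.25 FPKM in WT libraries, each time in the order of replicates 1, 2 and 3. All 6 NrasQ61K libraries lay below all 3 WT libraries. The mean was 2.22 ± 0.369 FPKM in MHCII-KO, 2.33 ± 0.535 in Tyr-NrasQ61K and 5.76 ± 1.18 in WT libraries (SD, n = 3 each). On the log2(FPKM + 1) scale, which understates the change of low genes, Myh11 differed from WT by -1.06 in MHCII-KO and by -1.02 in Tyr-NrasQ61K libraries (SE 0.202 for each). After median-ratio scaling, an alternative chosen after seeing the data, its levels drew together within each group, at 2.69, 2.44 and 2.09 FPKM in MHCII-KO, 2.43, 2.23 and 2.33 in Tyr-NrasQ61K and 5.38, 4.67 and 5.07 in WT libraries.

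Acta2 (ENSMUSG00000035783, chr19:34241090-34255590, minus strand) encodes smooth muscle alpha-actin, the actin of the contractile thin filament, which activated fibroblasts and pericytes can also make. Its levels were 6.99, 4.56 and 3.70 FPKM in MHCII-KO, 6.29, 2.74 and 8.37 FPKM in Tyr-NrasQ61K and 17.0, 8.30 and 17.8 FPKM in WT libraries. MHCII-KO libraries did not overlap with WT, while Tyr-NrasQ61K replicate 3 lay just above WT replicate 2. The difference from WT was -1.30 in MHCII-KO and -1.21 in Tyr-NrasQ61K libraries on the log2 scale (SE 0.413). Acta2 lies close to other actins in sequence. Its coding sequence of 1134 bases was identical to that of the abundant cytoplasmic actin Actb at 82.8% of aligned positions, with a longest identical run of 47 bases, and to that of Actg2 at 84.2%, with a run of 29. Actb was at 1168 to 1542 FPKM in MHCII-KO, 1111 to 1828 in Tyr-NrasQ61K and 1177 to 1969 in WT libraries, so reads assigned to the wrong actin could weigh on Acta2 and Actg2, and how the authors assigned such reads is not given in the sources used here.

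Tagln (ENSMUSG00000032085, chr9:45929619-45936058, minus strand) encodes transgelin, also called SM22 alpha, an actin-binding protein of smooth muscle. It had 7.0, 5.51 and 6.19 FPKM in MHCII-KO, 7.49, 3.09 and 8.47 FPKM in Tyr-NrasQ61K and 20.8, 7.51 and 18.3 FPKM in WT libraries. The MHCII-KO libraries stood below all WT libraries, and Tyr-NrasQ61K replicate 3 lay above WT replicate 2. The log2 difference from WT was -1.09 in MHCII-KO and -1.15 in Tyr-NrasQ61K libraries (SE 0.424).

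Myl9 (ENSMUSG00000067818, chr2:156775420-156781658, plus strand) encodes the regulatory light chain of smooth muscle and nonmuscle myosin, the protein that myosin light chain kinase phosphorylates. Its levels were 5.38, 2.61 and 3.26 FPKM in MHCII-KO, 4.97, 1.02 and 9.99 FPKM in Tyr-NrasQ61K and 14.3, 5.77 and 14.9 FPKM in WT libraries. The 3 Tyr-NrasQ61K libraries spread more widely, relative to their mean, than those of the other groups, and this gene had the largest SE of the 8 tested, 0.607. The log2 difference from WT was -1.36 in MHCII-KO and -1.21 in Tyr-NrasQ61K libraries.

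Mylk (ENSMUSG00000022836, chr16:34745210-35002420, plus strand) encodes myosin light chain kinase itself, in a long form that many cells use and a short form of smooth muscle, which the gene-level values do not separate. It had 7.51, 5.75 and 7.72 FPKM in MHCII-KO, 7.53, 4.64 and 10.5 FPKM in Tyr-NrasQ61K and 15.8, 7.85 and 17.1 FPKM in WT libraries. MHCII-KO replicate 3 was just under WT replicate 2, and Tyr-NrasQ61K replicate 3 was above it. The log2 difference from WT was -0.81 in MHCII-KO and -0.76 in Tyr-NrasQ61K libraries (SE 0.349).

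Des (ENSMUSG00000026208, chr1:75360329-75368579, plus strand) encodes desmin, the intermediate filament of muscle, which pericytes and some reticular cells also hold. Its levels were 10.6, 8.46 and 9.66 FPKM in MHCII-KO, 9.49, 7.11 and 14.1 FPKM in Tyr-NrasQ61K and 19.6, 8.30 and 15.7 FPKM in WT libraries. The groups overlapped, since WT replicate 2 lay below all MHCII-KO libraries. The log2 difference from WT was -0.48 in MHCII-KO and -0.44 in Tyr-NrasQ61K libraries (SE 0.338).

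Cnn1 and Actg2 were too low to be tested, which required at least 1 FPKM in at least 3 of the 9 libraries. Cnn1 (ENSMUSG00000001349, chr9:22099216-22109630), calponin 1, an actin-binding protein of differentiated smooth muscle, had 0.110, 0.0561 and 0.0867 FPKM in MHCII-KO, 0.248, 0.0649 and 0.0366 in Tyr-NrasQ61K and 0.0484, 0.489 and 0.425 in WT libraries. Actg2 (ENSMUSG00000059430, chr6:83512905-83536265), the enteric smooth muscle gamma-actin, had 0.0721, 0 and 0.496 FPKM in MHCII-KO, 0.0977, 0.226 and 1.30 in Tyr-NrasQ61K and 0.825, 0.423 and 1.02 in WT libraries. Neither gene separated the groups. A single Cnn1 value in WT, that of replicate 1, was lower than 5 of the 6 NrasQ61K values, and the highest Actg2 value of all libraries was that of Tyr-NrasQ61K replicate 3.

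Rgs5 (ENSMUSG00000026678, chr1:169655501-169695813), a regulator of G protein signalling that marks pericytes and arterial smooth muscle, was the highest of the 10 genes, with a mean of 21.8 FPKM over the 9 libraries. It had 16.6, 12.4 and 18.3 FPKM in MHCII-KO, 18.3, 9.94 and 27.6 FPKM in Tyr-NrasQ61K and 34.7, 17.6 and 40.8 FPKM in WT libraries. The groups overlapped at WT replicate 2, and the log2 difference from WT was -0.87 in MHCII-KO and -0.73 in Tyr-NrasQ61K libraries (SE 0.422). Pdgfrb (ENSMUSG00000024620), the PDGF receptor of pericytes and other mesenchymal cells, among them reticular cells, behaved otherwise. Its levels were 6.60, 6.85 and 9.59 FPKM in MHCII-KO, 6.83, 6.41 and 7.23 FPKM in Tyr-NrasQ61K and 8.27, 4.35 and 8.62 FPKM in WT libraries. Its log2 difference from WT was 0.14 in MHCII-KO and 0.00 in Tyr-NrasQ61K libraries (SE 0.259), and the lowest Pdgfrb value of the 9 was that of WT replicate 2.

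**Figure D1:**
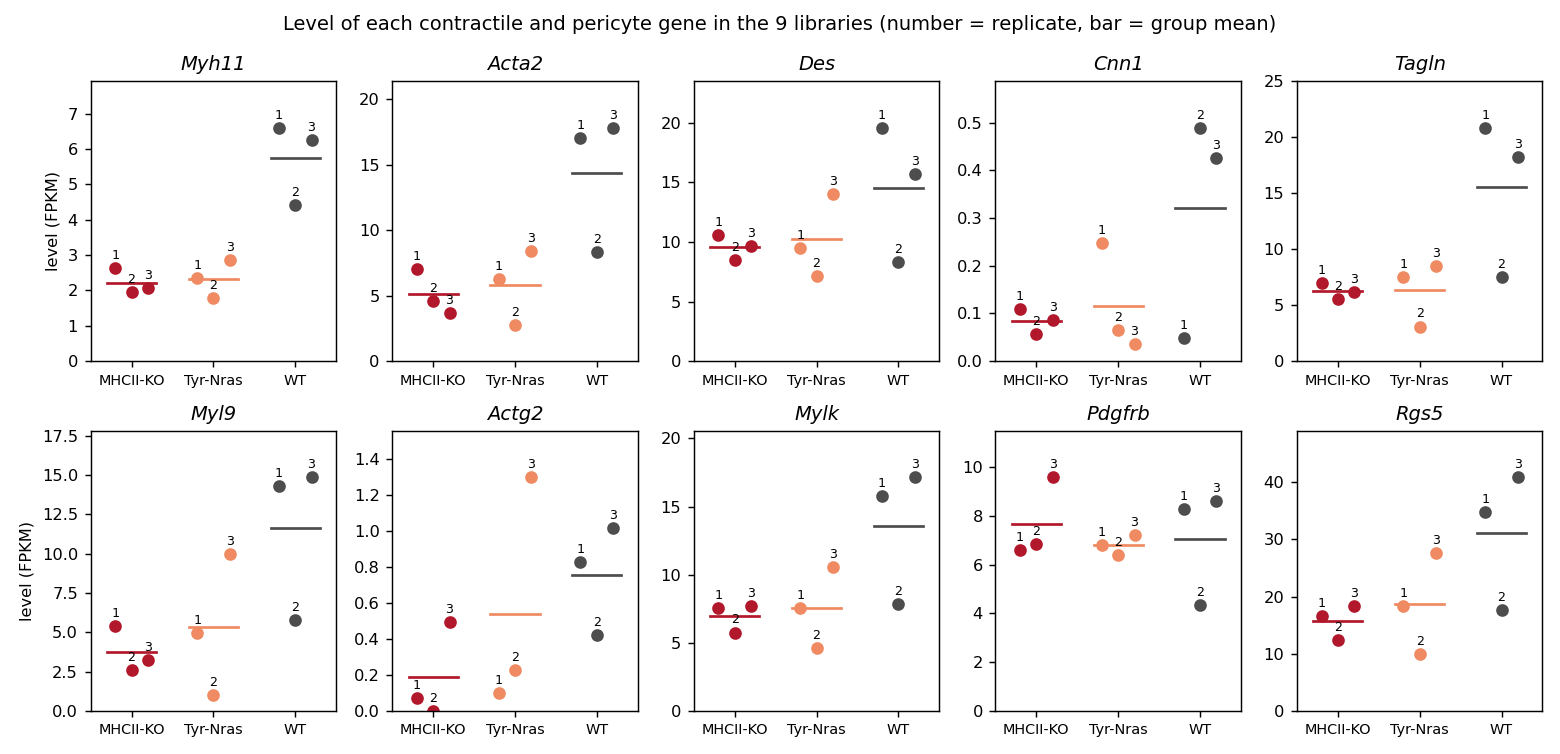
FPKM of each of the 10 genes (vertical axis, linear and starting at 0) in the 3 libraries of each group, with the replicate number beside each point and a bar at the group mean. For Myh11 the 6 NrasQ61K points lie at 1.79 to 2.85 FPKM and the 3 WT points at 4.41 to 6.61 FPKM, whereas for Pdgfrb the groups overlap.

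By mean level over the 9 libraries, Rgs5 was followed by Des at 11.4, Mylk at 9.39, Tagln at 9.37, Acta2 at 8.42, Pdgfrb at 7.20, Myl9 at 6.91 and Myh11 at 3.43 FPKM, with Actg2 at 0.495 and Cnn1 at 0.174 FPKM. These levels are per length of transcript. Neighbours from Des to Myl9 in this order lay closer together than the spread of either gene between WT libraries. The 10 genes summed to 63.5, 48.2 and 61.1 FPKM in MHCII-KO, 63.6, 37.0 and 90.4 FPKM in Tyr-NrasQ61K and 138, 65.0 and 141 FPKM in WT libraries. WT replicate 2 thus lay within the range of the NrasQ61K libraries, and it had the lowest value among the WT libraries for all 8 genes that were tested.

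Against all genes, the 8 members that passed the filter had a median log2 difference of -0.96 for MHCII-KO against WT, where the median of all 16587 genes tested was -0.22. For Tyr-NrasQ61K against WT the median of the 8 was -0.89 and that of all genes -0.12. The median of the 8 thus differed from that of all genes by -0.748 and -0.769 in these comparisons, which share their WT libraries. By limma, with Benjamini-Hochberg adjustment over all genes and a call at an adjusted p of at most 0.05, 0 of the 8 were called in either comparison, where 0.145% of all genes were called for MHCII-KO against WT and 0.235% for Tyr-NrasQ61K against WT. An unadjusted p under 0.05 was reached by 4 of the 8 for MHCII-KO against WT, where 15% of all genes did, and by 3 for Tyr-NrasQ61K against WT, where 15.2% did. Nothing is read from these counts, since the level of Myh11 relative to WT led to the set.

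MHCII-KO and WT libraries did not overlap for Acta2, Myh11, Myl9, Mylk and Tagln, which is 5 of the 8, all lower in MHCII-KO, where 23.4% of all genes tested were lower without overlap. After median-ratio scaling the same 5 did not overlap, where the share among all genes was 18.6%. Between Tyr-NrasQ61K and WT only Myh11 did not overlap, where 10.5% of all genes were lower without overlap. After scaling Acta2 and Tagln joined it, where the share of all genes was 14.3%. These counts also come from the values that led to the set.

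The calls depended on how libraries were weighted. With weights that limma estimated for each library, 7 of the 8 members were called lower for MHCII-KO against WT, where 34.7% of all genes were called lower. For Tyr-NrasQ61K against WT 7 were, where 24.5% of all genes were. Nothing is read from these counts of members either, since they come from the values that led to the set. The weights ran up to 5.22, that of MHCII-KO replicate 3, and were lowest at 0.197 and 0.295 in Tyr-NrasQ61K replicates 2 and 3 and at 0.319 in WT replicate 2.

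The size of some differences from WT rested on single libraries. Without Tyr-NrasQ61K replicate 2 the difference of Tyr-NrasQ61K from WT was -0.54 for Myl9, -0.49 for Mylk, -0.37 for Rgs5 and -0.23 for Des, and without Tyr-NrasQ61K replicate 3 it was -0.68 for Des. For Des it was -0.20 without WT replicate 1 and -0.77 without WT replicate 2, and for MHCII-KO against WT it was -0.24 and -0.81 without these libraries.

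The comparison of MHCII-KO with Tyr-NrasQ61K did not lead to the set. It was tested for the members other than Myh11, in the same fit, in which WT libraries share in the estimate of the spread. The comparison sets mice labelled MHC-negative beside mice labelled MHC-positive, all with activated NRAS. As the label does not show in the level of H2-Ab1, what was lost in these nodes is not known. Of the tested members without Myh11, none was called by limma, where 0.0482% of all genes were called. None of them had an unadjusted p under 0.05, where 1.52% of all genes did. The limma adjusted p was 0.9999 for each of these members. Myh11 had been noted as low in both of these groups, so its log2 difference of -0.04 between them is a description only. The log2 difference was -0.05 for Mylk, with a 95% interval of -0.85 to 0.75. It was -0.04 for Des (-0.82 to 0.73), 0.06 for Tagln (-0.91 to 1.03), -0.10 for Acta2 (-1.04 to 0.85) and 0.14 for Pdgfrb (-0.46 to 0.73). The widest intervals were those of Myl9, -0.14 (-1.53 to 1.24), and Rgs5, -0.14 (-1.10 to 0.83). For Myl9, differences of up to 1.24 upwards and 1.53 downwards lie within the interval. No member separated the groups without overlap, where 3.8% of all genes did so in either direction. For Myh11 this too is a description.

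**Figure D2:**
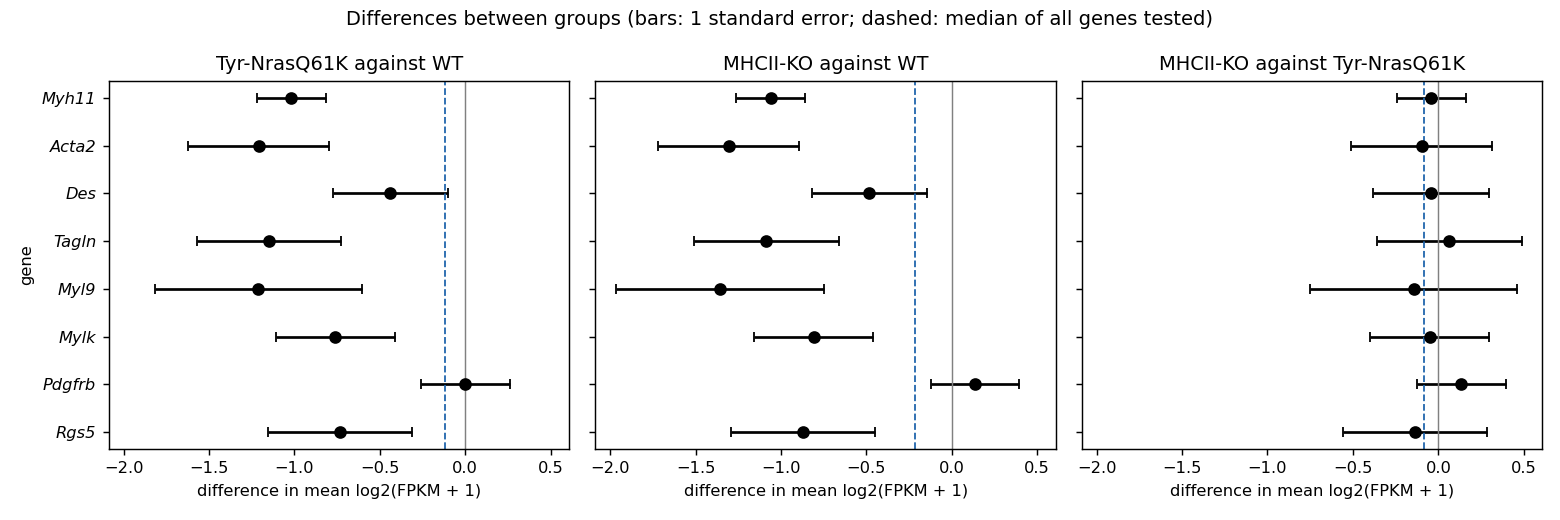
Difference in mean log2(FPKM + 1) of the 8 tested genes in the 3 comparisons (horizontal axis), with bars of 1 standard error and a dashed line at the median of all genes tested. Against WT, 7 genes lie to the left of the dashed line in both NrasQ61K groups and Pdgfrb does not, and between the NrasQ61K groups all 8 lie between -0.14 and 0.14.

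Of the 8 tested members, those other than Pdgfrb had like profiles from library to library. The Pearson correlation of each gene with the mean of the other members over the 9 libraries was 0.991 for Mylk, 0.981 for Tagln, 0.971 for Rgs5, 0.960 for Myl9, 0.953 for Acta2, 0.932 for Des and 0.881 for Myh11, but 0.322 for Pdgfrb. After median-ratio scaling it was 0.793 for Myh11, 0.817 to 0.981 for the other 6 and -0.408 for Pdgfrb. Of the 2 members too low to test, Cnn1 had r from -0.415 (Pdgfrb) to 0.475 (Myh11) with the tested members. Actg2 had r from 0.357 (Pdgfrb) to 0.808 (Rgs5) with them, with 0.771 for Mylk and 0.618 for Myh11. The closest pair was Mylk and Rgs5, with r of 0.990 over all libraries and 0.992 after the group means were taken out, so this pair varied together within groups as well as between them. Myh11 and Acta2 had r of 0.946 and 0.959 in the same way. Myh11 had r of 0.0772 with Pdgfrb over all libraries and 0.575 after the group means were taken out. These are descriptions over 9 libraries that share their groups and their scale, and they carry no test.

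The scale of the library moved with the members. Their mean profile, the mean over the 8 genes of the deviation of log2(FPKM + 1) from the gene's own mean, was -0.13, -0.49 and -0.28 in MHCII-KO, -0.15, -0.87 and 0.25 in Tyr-NrasQ61K and 0.88, -0.09 and 0.88 in WT libraries. Its correlation with the log2 median-ratio factor was 0.926 over the 9 libraries, and 0.834 once the levels had been divided by that factor. The scaled profile was -0.09, -0.21 and -0.24 in MHCII-KO, -0.10, -0.60 and 0.00 in Tyr-NrasQ61K and 0.62, 0.00 and 0.61 in WT libraries. WT replicates 1 and 3 were the highest before and after scaling, and Tyr-NrasQ61K replicate 2 was the lowest. The part of the scale in the difference from WT was not tested beyond this scaling.

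**Figure D3:**
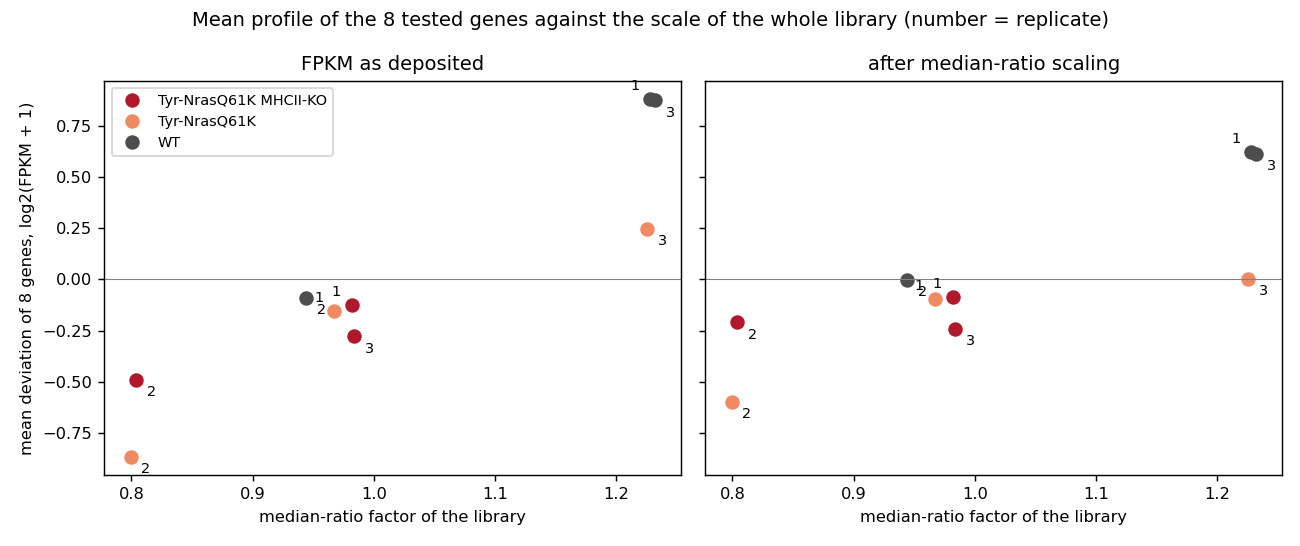
Mean deviation of the 8 tested genes on the log2(FPKM + 1) scale (vertical axis) against the median-ratio factor of the library (horizontal axis), for FPKM as deposited (left) and after scaling (right), with replicate numbers beside the points. Before scaling the points run from -0.87 in Tyr-NrasQ61K replicate 2 up to 0.88 in WT replicates 1 and 3, and after scaling these remain the lowest and the highest.

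The genes whose pattern was most like the mean profile were mostly not muscle genes. Among tested genes outside the set, the highest correlations over the 9 libraries were those of the processed pseudogene Gm10259 (0.996), Tsn (0.994), Nedd8 (0.993), Larp4b (0.992), Fam192a (0.991), Cbx3 (0.991), Cd34 (0.990) and Psmd5 (0.990). Cd34 encodes a surface protein of endothelial and blood progenitor cells, Nedd8 a ubiquitin-like protein and Psmd5 a chaperone of the proteasome. A correlation of at least 0.9 with the profile was common, held by 14.8% of the other tested genes before and 2.77% after scaling. Myh11 taken alone was most like Flt3 (0.994), Ccrl1 (0.992), Net1 (0.989), Suox (0.987) and Apol7c (0.986). Flt3, the receptor of a growth factor for dendritic cells, had 5.29, 4.46 and 4.18 FPKM in MHCII-KO, 5.19, 4.07 and 6.14 in Tyr-NrasQ61K and 10.8, 7.87 and 10.8 FPKM in WT libraries, the same separation of groups as Myh11. After scaling Flt3 and Apol7c were still among the 5 genes most like Myh11, with r of 0.985 and 0.990.

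The promoters of Acta2 and Myl9 are shown because, of the 6 windows searched, they were those with a match to the CArG box or to a form of it with 1 base off. Smooth muscle genes are known to be controlled by this box. Acta2 and Myl9 had r of 0.960 over the 9 libraries. The tested genes without a match were about as close, with r of 0.990 for Mylk and Rgs5, 0.940 for Des and Mylk and 0.928 for Des and Rgs5. The CArG box is bound by serum response factor, which works in smooth muscle with the coactivator myocardin. RefSeq windows (GRCm38.p6) of 250 bases before to 50 bases after the start were matched by symbol for 6 of the members, Acta2, Cnn1, Des, Myl9, Mylk and Rgs5. Capitals mark a CArG box or a form of it with 1 base off in its middle 6 positions, a pattern that reads the same class on both strands. The Acta2 window is chr19:34255324-34255623 on the minus strand, and the Myl9 window is chr2:156775214-156775513 on the plus strand.
Acta2 promoter: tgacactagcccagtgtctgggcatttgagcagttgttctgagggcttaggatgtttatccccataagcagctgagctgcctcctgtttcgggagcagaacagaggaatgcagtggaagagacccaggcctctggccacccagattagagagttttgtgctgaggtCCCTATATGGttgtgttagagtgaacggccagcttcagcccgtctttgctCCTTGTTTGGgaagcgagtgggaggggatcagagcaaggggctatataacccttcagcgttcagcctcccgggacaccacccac
Myl9 promoter: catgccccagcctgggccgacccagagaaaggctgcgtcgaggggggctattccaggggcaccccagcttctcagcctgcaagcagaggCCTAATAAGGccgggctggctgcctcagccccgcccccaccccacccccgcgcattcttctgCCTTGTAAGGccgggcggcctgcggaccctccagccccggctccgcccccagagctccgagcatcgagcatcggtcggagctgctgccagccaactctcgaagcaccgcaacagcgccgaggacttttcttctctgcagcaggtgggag
The Myl9 window held 1 full CArG box, CCTAATAAGG, 161 bases before the start, and CCTTGTAAGG with 1 base off 99 bases before it. The Acta2 window held CCCTATATGG and CCTTGTTTGG, each with 1 base off, 84 and 34 bases before the start. No match was in the windows of Cnn1, Des, Mylk and Rgs5. The Mylk window, chr16:34784700-34784999, lies inside the gene as placed above, and other starts of Mylk were not searched. Among 32851 promoter windows of the same length, 1.63% held a full CArG box and 9.98% held at least 1 with up to 1 base off. A match is a stretch of letters and was not tested for binding.

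The factors themselves were measured at low or moderate levels. Srf, serum response factor, was at 4.83, 4.89 and 5.27 FPKM in MHCII-KO, 3.89, 6.30 and 3.99 in Tyr-NrasQ61K and 7.30, 3.68 and 5.67 FPKM in WT libraries, and the groups overlapped. Myocd, myocardin, was at or below 0.297 FPKM in every library and was not tested. Mkl1, a related coactivator that many cells express, was at 21.8, 25.9 and 27.1 FPKM in MHCII-KO, 19.6, 34.1 and 28.0 in Tyr-NrasQ61K and 17.3, 17.3 and 13.7 FPKM in WT libraries, and all 6 NrasQ61K values lay above those of WT. Its log2 differences from WT, 0.60 in MHCII-KO and 0.70 in Tyr-NrasQ61K, had limma adjusted p of 0.329 and 0.310. These 3 genes were picked out after their values were seen. Over all genes tested, 7.97% were higher than WT without overlap in MHCII-KO and 8.18% in Tyr-NrasQ61K. Of the 6 tested genes in the list of transcription regulators described below, 5 lay below 0 in each comparison with WT, all but Mkl1. Mkl2, of the same list, overlapped, at 6.84, 4.01 and 6.76 FPKM in MHCII-KO, 7.55, 3.56 and 9.29 in Tyr-NrasQ61K and 9.15, 6.64 and 6.58 in WT libraries.

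Other genes of smooth muscle and pericytes were taken from 4 lists, of which 84 genes had a row and 56 were tested. For MHCII-KO against WT, 0 of the 56 were called by limma in either direction, where 0.145% of all genes were called. At an unadjusted p below 0.05 there were 4 higher and 12 lower, where 3.57% and 11.5% of all genes were. A difference below 0 was found for 43 of the 56, and for 67.5% of all genes. For Tyr-NrasQ61K against WT, 1 was called higher and 0 lower, where 0.235% of all genes were called in either direction. At an unadjusted p below 0.05 there were 4 higher and 14 lower, where 6.79% and 8.43% of all genes were. A difference below 0 was found for 42 of the 56, and for 59.1% of all genes. For MHCII-KO against Tyr-NrasQ61K, 0 were called, where 0.0482% of all genes were. At an unadjusted p below 0.05 there was 1, which was lower, where 0.235% of all genes were higher and 1.28% lower. The medians of the 56 were -0.40, -0.39 and -0.03 in these comparisons, beside -0.22, -0.12 and -0.08 for all genes.

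Among the 30 tested genes of the contractile apparatus the median difference from WT was -0.48 in MHCII-KO and -0.52 in Tyr-NrasQ61K libraries. For 10 genes of ion channels and calcium handling it was -0.33 in MHCII-KO and -0.25 in Tyr-NrasQ61K, for 6 transcription regulators -0.36 in MHCII-KO and -0.23 in Tyr-NrasQ61K, and for 10 pericyte genes -0.34 in MHCII-KO and -0.42 in Tyr-NrasQ61K. The contractile list thus lay farther below all genes than the regulators did, and each list median was nearer 0 than that of the 8 members.

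The gene called was Anpep, aminopeptidase N, an enzyme of brain pericytes that myeloid cells also carry. It had 15.3, 16.9 and 21.0 FPKM in MHCII-KO, 25.7, 19.3 and 24.5 FPKM in Tyr-NrasQ61K and 7.03, 2.72 and 4.65 FPKM in WT libraries, so that it ran opposite to the contractile genes and no NrasQ61K library overlapped with WT. It rose by 2.12 ± 0.296 (SE) on the log2 scale in Tyr-NrasQ61K against WT, with a limma adjusted p of 0.0431, and differed by 1.75 in MHCII-KO against WT, with an adjusted p of 0.113. The call for Tyr-NrasQ61K was lost when any of the 9 libraries was left out, with differences of 1.83 (without WT replicate 2) to 2.39 (without WT replicate 1).

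Sncg, gamma-synuclein, which smooth muscle, fat cells and neurons express, had 1.84, 0 and 0.812 FPKM in MHCII-KO, 2.23, 0.201 and 1.22 FPKM in Tyr-NrasQ61K and 18.5, 8.50 and 12.4 FPKM in WT libraries. Its difference from WT was -2.97 in MHCII-KO (limma adjusted p 0.0973) and -2.72 in Tyr-NrasQ61K libraries (limma adjusted p 0.0956). Aoc3, an amine oxidase of the surface of smooth muscle, fat cells and venules, averaged 1.82 ± 0.602 FPKM in MHCII-KO, 1.63 ± 0.645 in Tyr-NrasQ61K and 6.50 ± 0.711 FPKM in WT libraries (SD, n = 3 each). Its limma adjusted p was 0.109 for MHCII-KO and 0.0617 for Tyr-NrasQ61K against WT. Neither gene passed the threshold, although no NrasQ61K library reached the WT range.

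Adra1a, the alpha-1A adrenergic receptor, through which noradrenaline contracts smooth muscle, was low, at 1.61 ± 0.487 FPKM in MHCII-KO, 1.69 ± 0.410 in Tyr-NrasQ61K and 0.318 ± 0.0950 FPKM in WT libraries (SD, n = 3 each). The limma adjusted p was 0.178 and 0.119 for the differences of 0.97 and 1.02 from WT. All WT levels of Adra1a were below 1 FPKM, so it passed the filter only through NrasQ61K libraries. Nothing is read from its test against WT for that reason. In each comparison with WT it was 1 of the 4 list genes counted above as higher at an unadjusted p below 0.05. Between the NrasQ61K groups the smallest unadjusted p was that of Cacna1c, the pore of the L-type calcium channel, with 1.33, 0.751 and 1.59 FPKM in MHCII-KO and 2.49, 1.81 and 2.21 FPKM in Tyr-NrasQ61K libraries. Its difference was -0.53 ± 0.200 (SE), with a limma adjusted p of 0.9999. Cox4i2, Ebf1 and Anpep followed, with differences of 0.40, -0.33 and -0.37 and the same adjusted p.

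**Figure D4:**
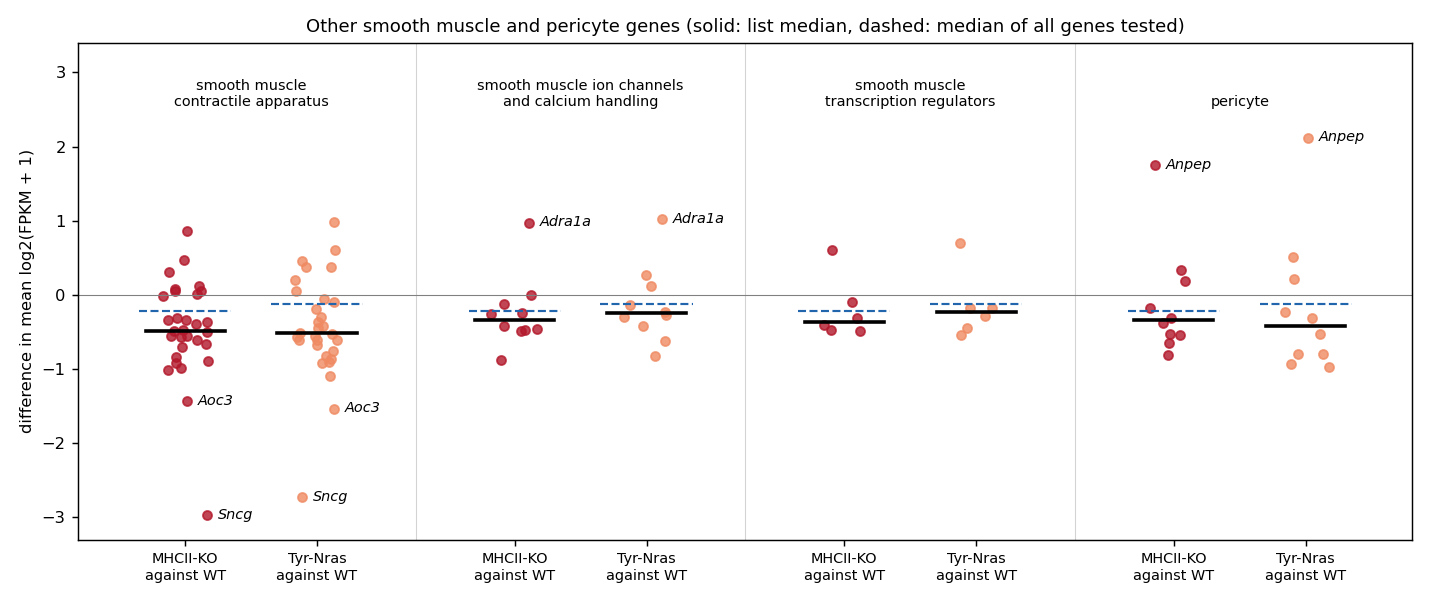
Difference from WT in mean log2(FPKM + 1) (vertical axis) of the 56 tested genes of the 4 lists, each point a gene, for MHCII-KO (dark) and Tyr-NrasQ61K (light), with a solid bar at the list median and a dashed bar at the median of all genes. Each list median lies below that of all genes, Anpep lies highest at 1.75 and 2.12, and Sncg lowest at -2.97 and -2.72.

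Of the marker lists of other cell types, those of adipocytes, endothelium, epithelium and reticular cells had medians below that of all genes in both comparisons with WT. No gene of these lists was called, where 0.145% of all genes were for MHCII-KO and 0.235% for Tyr-NrasQ61K against WT. At an unadjusted limma p under 0.05, 10 of the 11 tested adipocyte genes were lower in MHCII-KO and 11 in Tyr-NrasQ61K. Of the endothelial genes 3 and 4 were lower, and of the reticular genes 4 and 3, with 2 higher in each comparison. The epithelial genes had 0. Over all genes, 11.5% and 8.43% were lower. The epithelial median was -0.86 in MHCII-KO and -0.85 in Tyr-NrasQ61K, over only 2 tested genes. The endothelial median was -0.57 in MHCII-KO and -0.61 in Tyr-NrasQ61K. That of reticular cells was -0.34 in MHCII-KO and -0.13 in Tyr-NrasQ61K, beside -0.22 and -0.12 for all genes. The 13 adipocyte genes had the widest gap, with a sum of 68.1 to 184 FPKM in MHCII-KO, 47.0 to 200 in Tyr-NrasQ61K and 300 to 562 FPKM in WT libraries, and all 11 that were tested lay below 0 against WT in both groups. Fabp4, the fatty acid carrier of fat and endothelial cells, was at 36.1 to 99.0 FPKM in MHCII-KO, 19.8 to 130 in Tyr-NrasQ61K and 165 to 278 FPKM in WT libraries. Of 17 endothelial genes, 15 lay below 0 in each comparison with WT, where 67.5% of all genes did for MHCII-KO and 59.1% for Tyr-NrasQ61K. Their sum without Glycam1, a mucin of high endothelial venules, was 148 to 196 FPKM in MHCII-KO, 143 to 251 in Tyr-NrasQ61K and 178 to 373 FPKM in WT libraries, and Glycam1 alone was at 69.3 to 272 FPKM in MHCII-KO, 50.7 to 524 in Tyr-NrasQ61K and 502 to 1282 FPKM in WT libraries. Egfl7, an endothelial secreted protein, was at 42.0 to 44.9 FPKM in MHCII-KO, 46.5 to 77.2 in Tyr-NrasQ61K and 39.8 to 92.2 FPKM in WT libraries. The part of fat and of vessels in the levels of the contractile genes was not tested.

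Fibroblastic reticular cells share Des, Acta2 and Pdgfrb with the set. Their 18 markers summed to 403 to 499 FPKM in MHCII-KO, 366 to 542 in Tyr-NrasQ61K and 354 to 809 FPKM in WT libraries, so the summed levels overlapped, and 12 of 18 lay below 0 for MHCII-KO and 10 of 18 for Tyr-NrasQ61K against WT. Single genes differed in direction, with none called. The collagen gene Col1a1 was at 12.5 to 28.9 FPKM in MHCII-KO, 12.9 to 43.0 in Tyr-NrasQ61K and 5.17 to 11.1 FPKM in WT libraries, and Postn, the matrix protein periostin, at 2.56 to 4.74 in MHCII-KO, 1.98 to 7.47 in Tyr-NrasQ61K and 10.5 to 23.7 FPKM in WT libraries, both picked out after their values were seen. Dcn, the matrix protein decorin, was at 54.2 to 111 FPKM in MHCII-KO, 23.5 to 128 in Tyr-NrasQ61K and 54.4 to 168 FPKM in WT libraries. Cxcl12, a chemokine of reticular cells, was at 85.5 to 115 FPKM in MHCII-KO, 62.5 to 114 in Tyr-NrasQ61K and 54.5 to 116 FPKM in WT libraries. Schwann cell markers summed to 19.0 to 26.7 FPKM in MHCII-KO, 18.3 to 26.9 in Tyr-NrasQ61K and 20.2 to 30.4 FPKM in WT libraries.

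Some genes of striated muscle were seen mainly in a pair of MHCII-KO libraries. The skeletal muscle genes summed to 9.53 to 48.7 FPKM in MHCII-KO, 8.84 to 20.5 in Tyr-NrasQ61K and 15.3 to 22.1 FPKM in WT libraries. Its most abundant genes did not stand out there: Mylpf, a fast myosin light chain, was highest in Tyr-NrasQ61K replicate 3, at 10.6 FPKM, and Ttn, the giant filament protein titin, was at 2.48 to 3.80 FPKM in MHCII-KO, 2.03 to 2.92 in Tyr-NrasQ61K and 6.08 to 7.22 FPKM in WT libraries. Ckm, muscle creatine kinase, and Myh4, a fast myosin heavy chain, both picked out after their values were seen, were at 2.18 and 3.81 FPKM in MHCII-KO replicate 1 and at 0.683 and 2.04 FPKM in MHCII-KO replicate 2. In the other 7 libraries Ckm was at or below 0.0620 and Myh4 at or below 0.129 FPKM. Desmin is made by skeletal muscle too, and Des was at 10.6 and 8.46 FPKM in these libraries and 9.66 FPKM in MHCII-KO replicate 3. The cardiac actin Actc1, close in sequence to Acta2 with 82.5% identity, was listed at 0 in 8 libraries and at 0.125 FPKM in Tyr-NrasQ61K replicate 3. The cytoplasmic actin Actg1 was at 160 to 198 FPKM in MHCII-KO, 159 to 226 in Tyr-NrasQ61K and 166 to 250 FPKM in WT libraries.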

How the data were processed

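FPKM values for 9 libraries, deposited by the authors, were made with TopHat, Cufflinks and Cuffdiff on mouse build mm10, as named in the submitters' processing notes, with versions, gene annotation and read filters not given in the sources used here. Without read counts the depth of each library is unknown. The table held 37819 entries, of which 18 with several values per library were left out.

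Genes with at least 1 FPKM in at least 3 libraries (16587) were fitted as log2(FPKM + 1), with a pseudocount of 1, by limma 3.58.1 (R 4.3.3). The model held 3 group means, a variance trend and no replicate term, and p-values were adjusted over all genes tested by Benjamini-Hochberg. The median-ratio factor used 15495 genes above 0 in every library. Positions came from GENCODE M21, and alignments were made with Biopython 1.88. The fit was tested on simulated data.

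The members, gene lists and alternatives were chosen with earlier results of these data known. The rule for named genes took the members and the 4 list genes with the smallest unadjusted p per comparison. It also took the 8 and 5 genes most like the members' mean profile and Myh11. The 2 highest markers of other cell types and the other actins completed it, though not all of these markers are described. Srf, Myocd, Mkl1, Mkl2, Col1a1, Postn, Ckm, Myh4 and H2-Ab1 were named outside this rule. The alternatives were another pseudocount, no filter, median-ratio scaling, quantile normalization, library weights, a replicate block, 2 groups only, protein-coding genes only, and leaving out libraries.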

Additional observations from a re-analysis of the deposited data

How the results depend on the processing

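Under the 18 alternatives the difference from WT stayed below 0 for 7 of the 8 tested members in both NrasQ61K groups, although its size moved by over 1.5 times for Des, Myl9, Mylk and Rgs5 when single libraries were left out, and that of Pdgfrb was below 0 in 2 for MHCII-KO and in 11 for Tyr-NrasQ61K. The count of members called for Tyr-NrasQ61K against WT was 1 with median-ratio scaling, quantile normalization or the replicate block and 7 with library weights. Over all 16587 genes, median-ratio scaling called 43 higher and 23 lower, and quantile normalization 26 and 21. The replicate block called 267 higher and 627 lower, and library weights 1007 and 4069. For MHCII-KO against WT the count of members was 1 with the replicate block or with protein-coding genes only and 7 with library weights. Over all genes the replicate block called 111 higher and 666 lower, and library weights 1649 and 5758, of 16587. With protein-coding genes only, 35 were called higher and 73 lower of 11902. Nothing is read from the counts of members, since the values against WT led to the set. The count of list genes called for Tyr-NrasQ61K against WT was 0 with a pseudocount of 0.1, with no filter, without both replicates 2 of the NrasQ61K groups, with only the 2 groups compared, and from 0 to 0 without each library in turn. It was 29 (3 higher, 26 lower) with library weights, 6 with the replicate block and 4 with protein-coding genes only. These stand beside the counts over all genes given above, and 36 higher and 69 lower of 11902 with protein-coding genes only. For MHCII-KO against WT the count of list genes was 1 with median-ratio scaling or quantile normalization and 32 (4 higher, 28 lower) with library weights. It was 5 with the replicate block and 4 with protein-coding genes only. Over all genes, median-ratio scaling called 23 higher and 14 lower and quantile normalization 18 and 18, and the other counts are given above. The causes of these changes were not tested.

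The difference between MHCII-KO and Tyr-NrasQ61K changed sign for all 8 members under at least 1 alternative, and no member was called in any. For Myh11 this is a description only. With quantile normalization it was 0.0694 for Myh11, 0.0399 for Acta2, 0.106 for Des, 0.0818 for Mylk and 0.0394 for Rgs5. With median-ratio scaling it was 0.0302 for Myh11, 0.0466 for Des and 0.0405 for Mylk. With library weights it was 0.014 for Des, 0.0004 for Mylk and -0.19 for Tagln, which was also at -0.24 without both replicates 2. Leaving out 1 library gave -0.16 to 0.0711 for Myh11, -0.48 to 0.18 for Acta2, -0.26 to 0.19 for Des, -0.31 to 0.29 for Tagln, -0.81 to 0.41 for Myl9, -0.32 to 0.20 for Mylk, -0.0163 to 0.22 for Pdgfrb and -0.50 to 0.19 for Rgs5.

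Same-numbered libraries deviated together only in part. For replicates 1, 2 and 3, r was 0.147, 0.332 and 0.0311 between the NrasQ61K groups. It was 0.0476, 0.114 and 0.0177 for WT with Tyr-NrasQ61K, and 0.0862, 0.0887 and -0.04 for WT with MHCII-KO. Pairs of unlike number ran from -0.27 to 0.162. In every group replicate 2 had the lowest level of Myh11, Des, Tagln, Myl9, Mylk and Rgs5. As r was uneven, the replicate number was not taken as a pairing in the main fit. With the replicate block, 267 genes were called higher and 627 lower for Tyr-NrasQ61K against WT, against 27 and 12 without it, and 111 and 666 for MHCII-KO against WT, against 13 and 11.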
